A study of Mus musculus with 22 samples.

Results

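Among the cells of the dissociated mouse olfactory epithelium (OE) were 189 that carried RNA of the Dcpp genes or of Msln and little RNA of sustentacular cells, neutrophils or basal cells. They were 189 of the 25185 cells that passed the quality filters, out of 32293 cell barcodes in 8 matrices. A cell was kept when Dcpp1, Dcpp2, Dcpp3 and Msln together gave 3 or more UMIs (unique molecular identifiers, each standing for 1 captured RNA molecule). It also had to have Cyp2g1, Cyp2a5 and Sec14l3 under 0.5% of its UMIs, S100a8 and S100a9 under 5%, and fewer than 3 UMIs of Krt5, Krt14 and Krt15. Every cell had more than 500 genes, more than 1500 UMIs and under 20% mitochondrial UMIs. The cells were thus chosen by the measured values of these genes, whose levels are given as a description. The cells are called gland-duct cells below.

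The OE came from 4 wild type (WT, Upf3b+/y) and 4 Upf3b-null (KO, Upf3b-/y) male C57BL/6J mice of 7 to 8 weeks, with 1 library per mouse (WT1 to WT4, KO1 to KO4) of 5024031 to 27673674 UMIs. UPF3B acts in nonsense-mediated RNA decay (NMD), which removes transcripts with early stop codons among others, and the comparison asks how the gland-duct cells differ in number and in RNA without it. Mature olfactory sensory neurons (mOSNs) were also measured in bulk. RNA-seq used sorted OMP-eYFP+ cells of Upf3b+/y or Upf3b-/y mice with Omp-Cre and R26-eYFP (4 libraries each), and RiboTag used RNA on tagged ribosomes of Upf3b+/y or Upf3b-/y mice with Omp-Cre and RiboTag (3 libraries each). Each bulk library pooled 3 male mice of 8 to 9 weeks. Omp-Cre marks mature sensory neurons, so gland transcripts were not the target of either bulk assay.

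As background, the OE is kept moist by Bowman's glands, which lie in the lamina propria below it and open to the surface through ducts that cross the epithelium. Gland and duct cells secrete water, mucins, odorant-binding proteins and defence proteins. The ducts lie next to sustentacular cells, the supporting cells that are rich in enzymes for foreign chemicals. Dcpp genes encode demilune cell and parotid proteins, small secreted proteins known from salivary glands, and Msln encodes mesothelin, a surface glycoprotein of mesothelium and some epithelia. Sox9 and Sox10 are transcription factors used to mark Bowman's glands and ducts, and Aqp5 is a water channel of secretory epithelia.

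The 4 genes that chose the cells lie on mouse chromosome 17 (GENCODE vM21 on GRCm38). Dcpp1 spans chr17:23880876-23882853, Dcpp2 chr17:23880880-23900788 and Dcpp3 chr17:23917458-23919441, all on the plus strand, and Msln spans chr17:25748613-25754378 on the minus strand. The annotated spans of Dcpp1 and Dcpp2 overlap. Aligned over whole transcripts, Dcpp2 and Dcpp3 were identical at 95.4% of bases, Dcpp1 and Dcpp2 at 84.5% and Dcpp1 and Dcpp3 at 84.3%. In the last 300 bases, where 3′ counting reads fall, the identities were 96.3%, 92.0% and 91.7%. The 30 coding bases that differ most among the genes are printed to show how little sequence separates them, 5′ to 3′, with capitals at bases that are not the same in all 3 genes. They begin at coding base 274 of Dcpp1 and of Dcpp2 and at coding base 271 of Dcpp3.
Dcpp1: aTtgCAgCcCaGggcAcataCACtccttcG
Dcpp2: aTtgGGgTcGaAggcAcataTAAtccttcT
Dcpp3: aCtgGGgTcGaAggcTcataCTCtccttcT
Even in this stretch 11 of 30 bases vary, and Dcpp2 differs from Dcpp3 at 5. How Dcpp reads were split between the 3 genes is uncertain, and their sum is used to describe cells.

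Dcpp and Msln did not mark a uniform set of cells. Of the 189 gland-duct cells, 57 had 3 or more UMIs of both, 44 of Dcpp alone and 71 of Msln alone, and in 17 neither reached 3. The highest counts in a cell were 477 Dcpp and 45 Msln UMIs, while 55 cells had 0 Dcpp UMIs and 23 had 0 Msln UMIs. The cells with both were richest in other secreted products. Scgb1c1, a secretoglobin, took a median of 4.35% of their UMIs, against 0.646% in the cells with Dcpp alone and 0.806% in those with Msln alone. Wfdc18, a small secreted protein of the whey acidic protein family, took 2.79%, 0.468% and 0.606%. Cells at the lower limit of 3 UMIs cannot have 3 of both, so they fall only in the other groups. Of the cells with both, 10 of 57 had 3 or more UMIs of the neuronal gene Omp. With Dcpp alone it was 25 of 44 and with Msln alone 24 of 71. The part of these cells in the contrast was not tested.

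**Figure D1:**
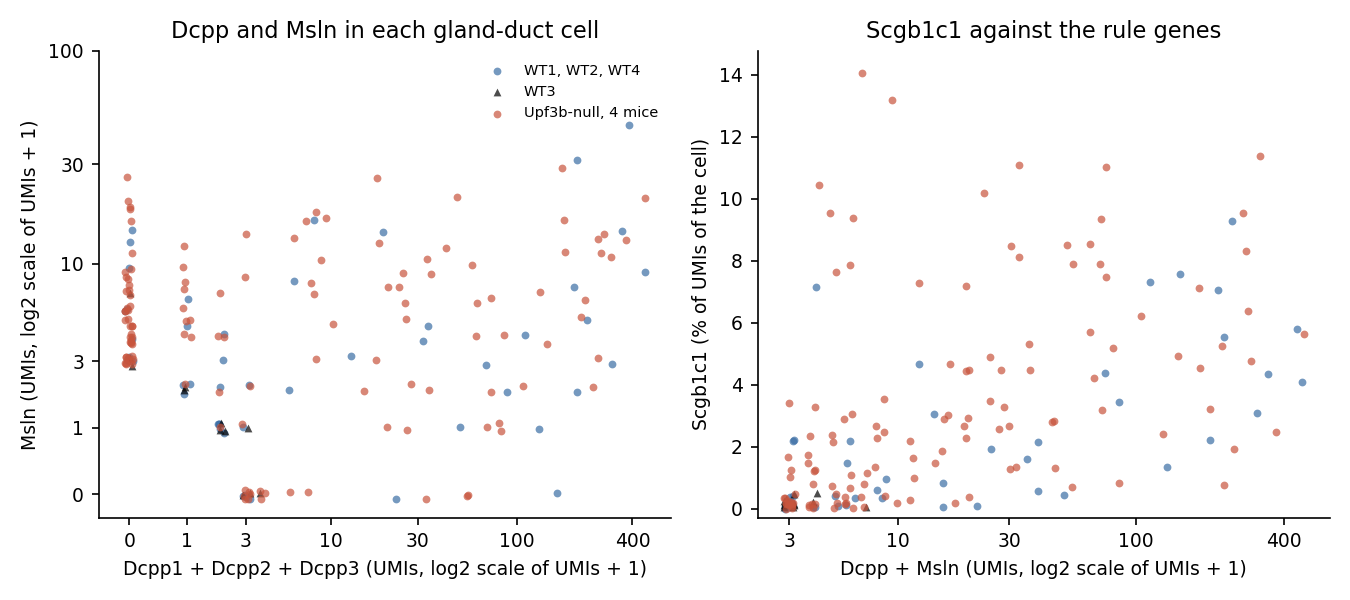
Left, Msln against Dcpp UMIs in each of the 189 gland-duct cells, both on a log2 scale of UMIs + 1 with points shifted slightly at random. Right, Scgb1c1 as a percentage of the cell's UMIs against Dcpp + Msln UMIs. 55 cells lie at 0 Dcpp, and the cells of WT3 (black triangles) reach at most 4 Dcpp and 7 Msln UMIs.

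The lower limit of 3 UMIs ran through cells with neuronal RNA. The 43 cells with exactly 3 UMIs had a median of 3 UMIs of keratins (Krt7, Krt8, Krt18, Krt19) and Epcam together and 4 UMIs of Omp, the mOSN marker, and 27 of them (62.8%) had 3 or more Omp UMIs. Just outside, 227 cells with 2 UMIs had medians of 2 and 5. The 56 cells with over 30 UMIs had medians of 17.5 and 1, and Scgb1c1 took 4.66% of their UMIs against 0.168% in the cells with 3. Of all 189 cells, 161 had 3 or more keratin and Epcam UMIs and 70 had 3 or more Omp UMIs. The 112 cells with the former and not the latter are called the stricter set.

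The limit on sustentacular genes ran through cells that also held secreted RNA. In all, 886 cells had 3 or more Dcpp and Msln UMIs, and 697 were left out, 654 of them by the sustentacular genes alone. These 654 cells had medians of 2.23% for Scgb1c1 and 0.807% for Wfdc18, against 1.47% and 0.711% in the gland-duct cells. Vmo1 had a median of 0.849% against 0.255%, and Rgs5 1.93% against 1.23%. They had 24 keratin and Epcam UMIs against 13, and 0 Omp UMIs against 1. Next to the limit, 45 gland-duct cells had 0.4 to 0.5% sustentacular UMIs and 44 cells outside had 0.5 to 0.6%. Raising the limit to 2% gave 803 cells, with 27 or more in every mouse. This wider set was chosen after the data were seen and stands beside the 189 cells where genotypes are compared.

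WT3 stood apart from the other libraries. Its 12 gland-duct cells had a median of 1669 UMIs and 16.8% mitochondrial UMIs, and all its cells had 15.5%, against 5.22 to 7.99% in all cells of the other mice. Of the 12, 2 had 3 or more keratin and Epcam UMIs, 10 had 3 or more Omp UMIs and 0 were in the stricter set. Means without WT3 are given below for the main genes and lists. No barcode was shared between libraries among the gland-duct cells, and 372 were among all cells. A doublet caller, read at the top 6% of scores in each library because its own threshold marked 0.111% of cells, marked 24 of the 189 (12.7%).

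The secreted products given as markers with Dcpp and Msln were high outside WT3. Levels are in CPM, the share of a gene in the UMIs summed over a mouse's cells, scaled to the same total for every mouse, and averaged over mice with 10 or more such cells, which for gland-duct cells were WT3, WT4, KO1 and KO4. Scgb1c1 (chr7:140845547-140846769) was at 1544 CPM in WT3, 14895 in WT4, 32034 in KO1 and 29603 in KO4, against means of 5559 in sustentacular-like, 1258 in ionocyte-like and 758 in B lineage cells. WT3 was below the sustentacular-like mean and the other 3 mice were above it. Vmo1 (chr11:70513516-70514616), a homologue of an egg membrane protein, was at 377, 2596, 5676 and 5552 CPM, and Chil6 (chr3:106387384-106406182), a chitinase-like protein, at 68.6, 448, 980 and 781 CPM. For Vmo1 and Chil6 too, WT3 was lowest by far. In KO4, 1 cell held 521 of the 931 Vmo1 UMIs.

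B lineage cells, which should lack these products, show the level of free RNA in the droplets. A Scgb1c1 UMI was found in 98.9% of gland-duct cells (median 3895 UMIs) and in 68.3% of B lineage cells (median 2771 UMIs), a Vmo1 UMI in 86.2% and 34.4%, and a Chil6 UMI in 72.0% and 7.09%. For Dcpp the shares were 70.9% and 3.15%, and for Msln 87.8% and 3.54%. An Omp UMI was found in 63.5% and 52.2%. These are shares at the depth of each class, without thinning, pooled over mice. WT3 had 0 B lineage cells, so its free RNA is not measured by them.

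Wfdc18 and Rgs5, which the rule did not use, were among the most abundant transcripts. Wfdc18 (chr11:83709015-83711348) was at 59841 CPM in WT3, 14567 in WT4, 30493 in KO1 and 18117 in KO4, but 1 cell held 1678 of the 1744 Wfdc18 UMIs of WT3. Rgs5 (chr1:169655501-169695813), a regulator of G-protein signalling best known from pericytes, was at 3019, 9500, 13321 and 12666 CPM, and the same WT3 cell held 80 of its 88 UMIs. Without WT3 the means over 3 mice were 21059 CPM for Wfdc18, 11829 for Rgs5 and 25510 for Scgb1c1, against 1080, 863 and 4212 in sustentacular-like cells of the same mice. All 3 were higher in gland-duct cells in 3 of 3 mice. On the log2 scale with 20 CPM added, the excess of Wfdc18 was 4.25 ± 0.90 and that of Rgs5 4.21 ± 1.47 (SD over 3 mice). Of the vascular genes, Cdh5, Kdr and Flt1 had 0 UMIs in the 4 mice and Pecam1 averaged 1.16 CPM.

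**Figure D2:**
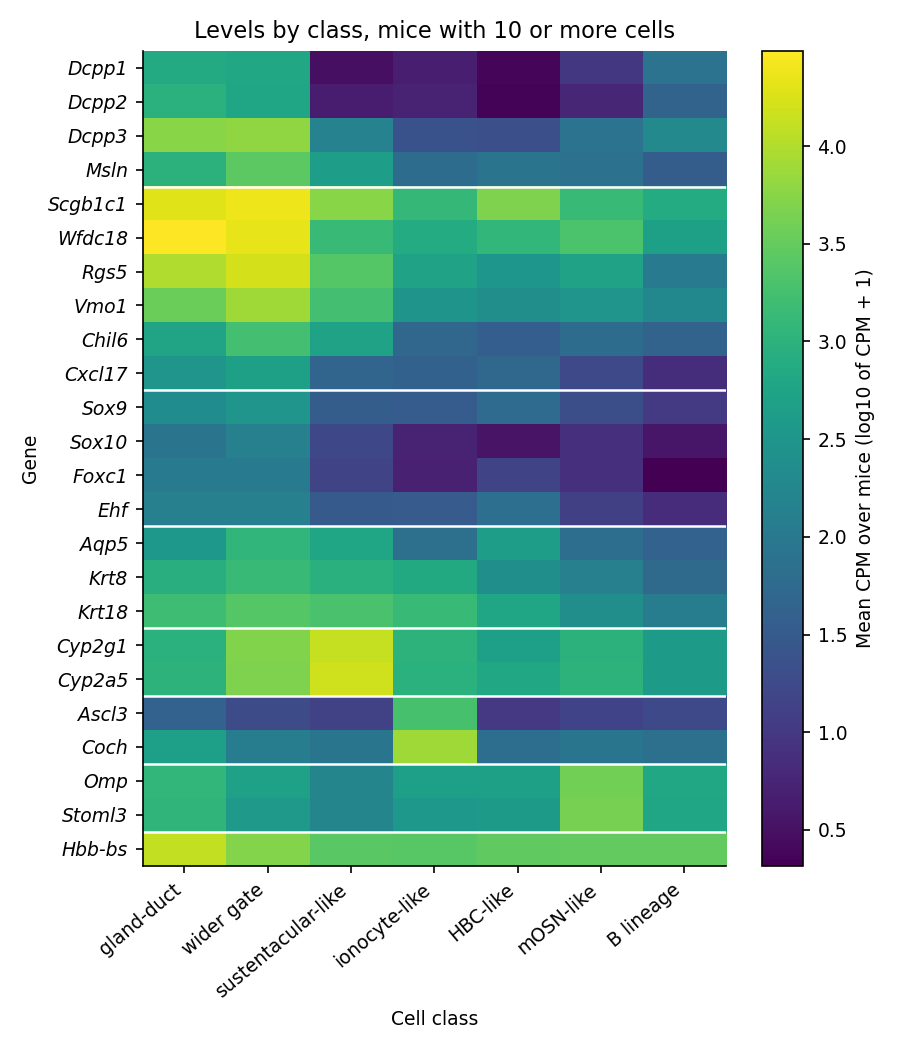
Mean level of 24 genes (rows) in 7 cell classes (columns), as log10 of CPM + 1 averaged over mice with 10 or more cells of the class. Scgb1c1, Wfdc18 and Rgs5 are high in gland-duct cells (19519, 30754 and 9627 CPM) and in the wider set, and Cyp2g1 and Cyp2a5 are lower there than in sustentacular-like cells, as the rule required.

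In a ranking of the 351 genes at 200 CPM or more in all 4 mice, the leading genes over all other cells were Rgs5, Clu, Wfdc18, Cxcl17, Vmo1 and Scgb1c1. Clu encodes clusterin, a secreted chaperone, and Cxcl17 a chemokine of mucosal surfaces. Cxcl17 varied little, at 240 CPM in WT3, 230 in WT4, 474 in KO1 and 310 in KO4, against 46.3 in sustentacular-like cells. Its log2 excess was 3.55 ± 0.19 over sustentacular-like cells and 2.66 ± 0.08 over all others (SD, 4 mice). Over sustentacular-like cells the 25 leading genes also held RNA of other cells, with 4 hemoglobin genes (Hba-a1, Hba-a2, Hbb-bt and Hbb-bs, which stayed without WT3) and neuronal genes such as Gng13. Omp and Stoml3, both genes of mOSNs, were among them, at 1184 and 1100 CPM, below the 4028 and 4303 CPM of mOSN-like cells. The mOSN-like cells were chosen by their Omp UMIs, so nothing is read from Omp there.

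Leaving out WT3 changed the ranking. Of the 25 leading genes, 14 over sustentacular-like cells and 11 over all other cells were the same, from 433 genes ranked. Genes that entered included Sox9, Chil6, Prss33, Dclk1, Slc5a8 and Agr2. Sox9 averaged 287 CPM over 3 mice against 13 in sustentacular-like cells, and Dclk1, a kinase also known from tuft cells, 1008 against 136. Slc5a8, a monocarboxylate transporter, averaged 466 against 100 CPM. Each was higher in 3 of 3 mice.

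Transcription factors of glands were present while water channels were not higher than in sustentacular-like cells. Of 13 gland regulators and water channels, 11 were at 20 CPM or more, against 7 in sustentacular-like cells, and 5 were more than 2-fold higher and 2 more than 2-fold lower than there. Sox9 was at 34.3, 290, 224 and 346 CPM in WT3, WT4, KO1 and KO4, and Sox10 at 0, 87.5, 80.9 and 161. A Sox9 UMI was found in 47.6% of gland-duct cells and 2.36% of B lineage cells, and a Sox10 UMI in 28.0% and 0.197%. Foxc1, a forkhead factor, averaged 112 CPM against 14 in sustentacular-like cells, and Ehf, an epithelial factor of the ETS family, 137 against 29.9, both higher in 4 of 4 mice. Aqp5 averaged 341 CPM against 617, Aqp4 313 against 577 and Aqp3 227 against 1196. In the wider set Aqp5 averaged 1138 CPM. Without WT3, Foxc1 averaged 103 CPM against 6.58 in sustentacular-like cells of the same mice, Ehf 136 against 26.7 and Aqp5 432 against 444, and 4 genes were more than 2-fold higher and 1 lower.

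Keratins and junction genes of simple epithelium were at levels close to those of sustentacular-like cells. Of 14 such genes, 11 were at 20 CPM or more, 2 were more than 2-fold above sustentacular-like cells and 1 more than 2-fold below. Krt18 averaged 1565 CPM against 1974, Krt8 873 against 929 and Epcam 709 against 911. Cldn10, a claudin of tight junctions, averaged 197 against 107 CPM and was higher in 4 of 4 mice. Without WT3, Krt18 averaged 1927 CPM against 1663, Krt8 1084 against 850 and Epcam 751 against 816.

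Secreted mucins were low in most mice. Muc5b, a gel-forming mucin of airway glands, had 0, 3, 6 and 158 UMIs in WT3, WT4, KO1 and KO4, and 146 of the 158 came from 1 cell. Muc5ac, a mucin of surface goblet cells, had 66 UMIs in KO4 and 0 in the other 3 mice. Muc2 averaged 32.8 CPM against 1010 in sustentacular-like cells.

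Of 26 defence genes, the largest list, 11 were above sustentacular-like cells by more than 2-fold and 0 below by as much, with 17 at 20 CPM or more. The list holds Wfdc18 and Chil6, named above. Gland regulators and water channels had 5 of 13 above by as much and BPI-fold proteins 3 of 10. The share over all genes is not given. Ltf (lactoferrin, also a neutrophil product) was at 6760, 1011, 1677 and 1551 CPM, and 195 of its 197 UMIs in WT3 were in the cell with the Wfdc18. Wfdc2 averaged 546 CPM against 328. Without WT3 the defence genes had 9 above and 0 below by more than 2-fold, Ltf averaged 1413 CPM against 113 and Wfdc2 670 against 121. Among 16 measured odorant-binding proteins, lipocalins and secretoglobins, 11 were at 20 CPM or more and 2 were more than 2-fold above sustentacular-like cells. Obp1a, an odorant-binding protein, averaged 700 CPM, below the 1376 CPM of mOSN-like cells. Of 10 BPI-fold proteins, 6 were at 20 CPM or more, led by Bpifa1 at 961, 519, 517 and 6280 CPM, of which 1020 of 1053 UMIs in KO4 came from 1 cell. Bpifa1 averaged 1877 CPM in all other cells and 435 CPM in the wider set.

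Genes of the secretory pathway were present at levels like those of sustentacular-like cells. Of 22 endoplasmic reticulum genes, 21 were at 20 CPM or more in both classes and 1 was more than 2-fold higher. Agr2, a disulfide isomerase needed to fold mucins, averaged 1018 CPM against 1459, and Hspa5, a main chaperone of the compartment, 308 against 266. Without WT3 they averaged 1323 against 1178 and 331 against 246. Of 22 xenobiotic enzymes, 13 were more than 2-fold lower than in sustentacular-like cells, with Cbr2 at 555 against 8312 CPM, Gstm1 at 576 against 5009 and Cyp2f2 at 728 against 3102. The rule left out cells rich in such enzymes, so nothing is read from this direction. Of 19 ion and fluid transport genes, 7 were at 20 CPM or more, among them Atp1b1 (756 CPM against 917 in sustentacular-like cells), while the chloride channel Cftr averaged 12.8 CPM against 430 in ionocyte-like cells. Cftr was among the genes that chose the ionocyte-like cells, so nothing is read from that difference.

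Markers of other cell types differed among the 4 mice. The 6 mOSN markers (6 of 6 at 20 CPM or more, Gng13 highest) summed to 8921 CPM in WT3, 4034 in WT4, 1807 in KO1 and 4830 in KO4. Erythroid markers (5 of 5, Hbb-bs highest) summed to 7892, 79240, 15072 and 8927 CPM, and 6 gland-duct cells had over 10% hemoglobin UMIs. Neutrophil markers (7 of 7, Ltf highest) summed to 11632, 4187, 4967 and 8641 CPM. Without Ltf the neutrophil sums were 4872, 3176, 3290 and 7091 CPM, highest in KO4. WT3 was highest for neuronal RNA and WT4 for hemoglobin.

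Macrophage or monocyte markers (5 of 6, C1qc highest) summed to 1235, 284, 90.1 and 161 CPM, and ionocyte-like markers (3 of 6, Coch highest, Atp6v0d2 at 0) to 1647, 470, 97.0 and 179 CPM. Without Coch the ionocyte sums were 137, 164, 83.2 and 143 CPM, which overlap between genotypes. The macrophage sums were higher in the WT mice also without C1qc (789, 262, 85.5 and 161 CPM). Goblet markers (2 of 4, Muc5ac highest, Tff3 at 0) summed to 34.3, 16.4, 25.4 and 608 CPM. Tuft-like markers (0 of 6, Chat and Il25 at 0), glial markers (0 of 6, Npy and Frzb at 0), B lineage markers (0 of 3) and HBC-like markers (horizontal basal cells, 0 of 4) were not at 20 CPM. Of the other lists, 3 of 3 immature neuron markers, 2 of 5 globose basal cell markers, 3 of 5 stromal and 2 of 6 ciliated markers were at 20 CPM or more. The part of these RNAs in the differences below was not tested.

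Gland-duct cells with and without Dcpp differed in other genes too. The comparison set cells with 3 or more Dcpp UMIs against cells with 0, in the 3 mice with 5 or more of both (WT4, KO1 and KO4), as a description. Scgb1c1 was at 24286, 36714 and 38367 CPM with Dcpp and 11156, 22618 and 1734 without, and Chil6 averaged 891 against 373 CPM. Cxcl5, a chemokine that attracts neutrophils, averaged 561 against 210 CPM. Each was higher with Dcpp in 3 of 3 mice. Reg3g, a lectin that kills bacteria, ran the other way, at 43.1, 34.6 and 137 CPM with Dcpp and 475, 1694 and 22537 without. Tff2, a trefoil peptide of mucous cells, averaged 16.1 against 317.5 CPM and Pigr, the receptor that carries immunoglobulin A across epithelia, 9.34 against 238. Both were lower with Dcpp in 3 of 3 mice, but the cells without Dcpp held 1 UMI of each in WT4 and 3 of each in KO1.

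Single cells without Dcpp held most of the Reg3g in KO1 (226 of 231 UMIs) and KO4 (358 of 377), and of the Tff2 (15 of 15) and Pigr (10 of 11) in KO4. These cells and others rich in Reg3g were looked up after their values were seen. A cell of KO4 with 1859 UMIs held 358 Reg3g, 64 Muc5ac, 15 Tff2 and 10 Pigr UMIs, with 3 Msln and 0 Dcpp. A second cell of KO4, outside the comparison as it has Dcpp, held 251 Reg3g, 1020 Bpifa1 and 9 Tff2 UMIs, with 2 Msln and 1 Dcpp2. A cell of KO1 held 226 Reg3g UMIs and a cell of WT2, a mouse not compared, 130, both with 3 Msln and 0 Dcpp. All 4 cells had 0 Sox9 and 0 Rgs5 UMIs and at most 4 Scgb1c1 UMIs. The cell with the most Muc5b was different, with 146 Muc5b, 1930 Scgb1c1, 27 Dcpp3, 104 Rgs5 and 11 Sox9 UMIs among 17419.

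The share of gland-duct cells showed no difference between genotypes beyond the spread of the mice. It was 0.328%, 0.346%, 0.430% and 1.30% in WT1 to WT4 (6, 5, 12 and 40 cells) and 1.19%, 0.300%, 0.292% and 0.548% in KO1 to KO4 (85, 4, 5 and 32 cells). WT4 and KO1 were the high mice of their groups, and the groups overlapped. The means were 0.601% ± 0.468 in WT and 0.582% ± 0.421 in KO (SD, n = 4 each), with p = 0.886 in a two-sided exact permutation test over 70 splits of the mice, whose smallest possible p is 0.0286. In the wider set the means were 2.47% ± 1.02 and 3.04% ± 1.68 (exact permutation p = 0.629), and in the stricter set 0.289% ± 0.306 and 0.379% ± 0.354 (exact permutation p = 0.629).

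**Figure D3:**
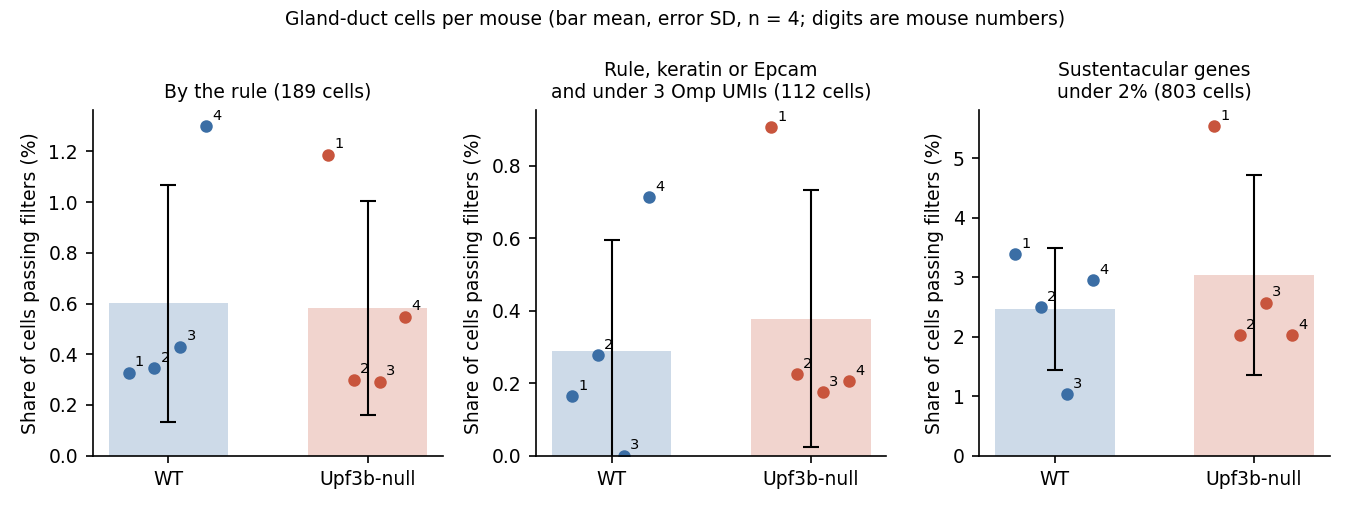
Share of the cells passing the filters (%) that were gland-duct cells in each mouse (points, with mouse numbers), for the rule, the stricter set and the wider set, with bars at the mean and error bars of 1 SD over 4 mice. WT4 at 1.30% and KO1 at 1.19% lie above the other mice under the rule, and the genotypes overlap in all 3 panels.

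Upf3b (chrX:37091678-37110322) followed the genotype labels. In the gland-duct cells it had 2, 3, 2 and 22 UMIs in WT1 to WT4 and 1, 0, 0 and 0 in KO1 to KO4. In the wider set its level was 73.9, 94.3, 133 and 99.7 CPM in WT and 0.430, 0, 2.90 and 3.19 CPM in KO, without overlap. In edgeR's quasi-likelihood test on counts summed per mouse over the wider set, Upf3b fell by 6.02 ± 0.54 (log2, SE; adjusted p = 5.94e-05). It was the 1 gene called of 4344 tested (0.023%) at an adjusted p under 0.05, and 91 (2.09%) had an unadjusted p under 0.05.

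Under the rule itself, 4 of 3021 genes tested (0.132%) were called between WT3 and WT4 and KO1 and KO4, with 113 (3.74%) at an unadjusted p under 0.05. With 2 mice a genotype, a gene that was not called here may still have changed. Coch, which encodes the secreted protein cochlin, was lower in KO by edgeR's test (log2 -5.18 ± 0.75 SE, adjusted p = 1.37e-08), as was Apoe, apolipoprotein E (-2.94 ± 0.60, adjusted p = 6.46e-04). Reg3g was higher in KO (3.87 ± 0.66, adjusted p = 1.13e-05), as was Gm8730, a processed pseudogene that can share reads with its parent gene (3.68 ± 0.75, adjusted p = 6.46e-04). In the wider set with 8 mice the adjusted p was 0.999 for each of the 4 and their values overlapped between genotypes. The log2 differences there were -1.52 for Coch, -1.11 for Apoe, 0.86 for Reg3g and 2.18 for Gm8730. With a replicate block in that set Gm8730 was called (log2 1.98, edgeR adjusted p = 0.00307), while Coch, Apoe and Reg3g were not.

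Single cells held much of the RNA of Coch and Apoe in WT3 and of Reg3g in KO1 and KO4. Coch (chr12:51593341-51605771) was at 1510 CPM in WT3, 306 in WT4, 13.9 in KO1 and 35.8 in KO4. In WT3, 41 of its 44 UMIs came from 1 cell, which also had 3 UMIs of Ascl3, an ionocyte factor, while in WT4 the 56 UMIs lay in 21 of 40 cells, with 23 in 1 of them. Ionocyte-like cells had 7890 CPM of Coch. Apoe (chr7:19696109-19699188) was at 2779, 825, 208 and 239 CPM, and 65 of its 81 UMIs in WT3 came from 1 cell that also had 8 C1qa and 11 C1qc UMIs, genes of macrophages. In WT4 the 151 Apoe UMIs lay in 35 of 40 cells, with 27 in the highest.

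Reg3g (chr6:78466269-78468872) was at 240, 109, 554 and 3882 CPM, and single cells held 226 of the 240 UMIs of KO1 and 358 of the 651 of KO4. Gm8730 was at 34.3, 54.7, 1003 and 227 CPM, with UMIs in 1 of 12, 8 of 40, 74 of 85 and 16 of 32 cells, most often in KO1. Its log2 difference was 2.16 without KO1 and 4.42 without WT4, and it was not called in either. DESeq2 gave Gm8730 a log2 difference of 3.99 and did not call it (adjusted p = 0.195). Without WT3, edgeR's adjusted p was 0.105 for Coch (log2 -3.66), 0.459 for Gm8730 (log2 3.60) and 0.0268 for Reg3g, and Apoe was not called either (log2 -1.81, edgeR adjusted p = 1.00). Apoe was also not called without KO1 (log2 -2.83), without KO4 (log2 -2.85) or by DESeq2 (log2 -2.52, adjusted p = 0.457). The 6 genes called without WT3 were Olfr1426, Bpifb4, 5430402E10Rik, Hbb-bs and Hba-a1, lower in KO, and Reg3g, higher in KO. The Reg3g call was lost without WT4 (log2 3.42) and without KO4 (log2 2.03). In cells with 5 or more Dcpp and Msln UMIs, Reg3g (log2 0.65), Coch (-3.63), Gm8730 (3.95) and Apoe (-1.87) were not called. In the stricter set WT4 was the 1 WT mouse with 10 or more cells, so the fit against KO1 and KO4 takes its spread from the KO mice. Its log2 differences were -4.76 for Coch, -5.00 for Bpifb4, -1.74 for Apoe, 3.68 for Gm8730 and 4.44 for Reg3g.

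**Figure D4:**
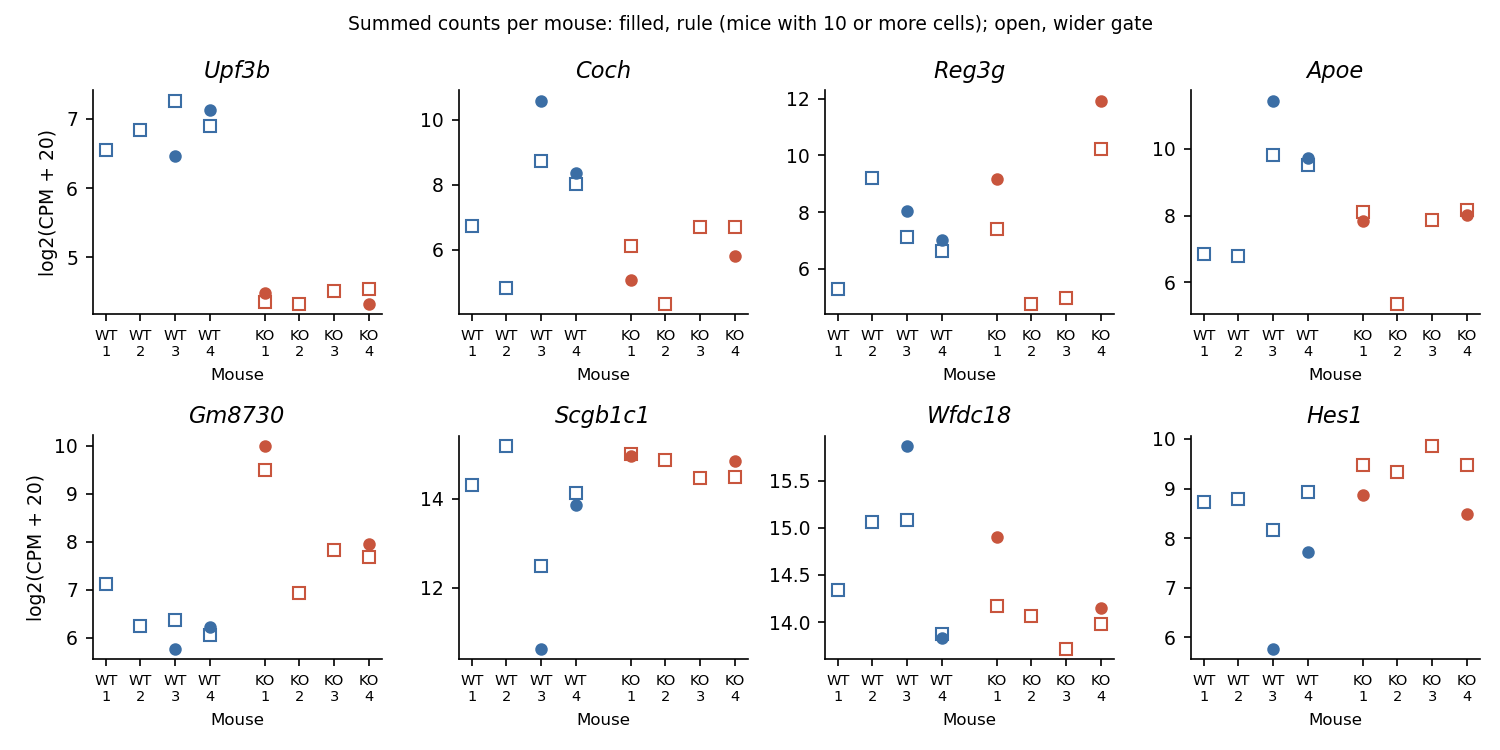
Level of 8 genes in each mouse as log2 of CPM + 20 from summed counts, with filled circles for the rule (mice with 10 or more cells) and open squares for the wider set, WT in blue and KO in red. Upf3b separates the genotypes in both sets, whereas Coch, Reg3g and Apoe overlap in the wider set.

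The genes with the next smallest p under the rule did not pass. Ier3, an early response gene, was at 0, 32.8, 273 and 197 CPM (edgeR adjusted p = 0.0852), and Junb, a transcription factor of the AP-1 family, at 172, 126, 986 and 429 CPM (edgeR adjusted p = 0.165). Bpifa1 (log2 2.28), Upf3b (-5.50), Cxcl5 (2.24) and Hist1h2ap (-2.45) followed. In the wider set, Alox5ap, needed for leukotriene synthesis, was at 11.1, 12.9, 7.85 and 6.65 CPM in WT and 38.2, 75.0, 40.6 and 36.7 in KO (log2 2.24 ± 0.45, edgeR adjusted p = 0.341). Its level in all other cells was 187 CPM. Hes1, a target of Notch signalling, was at 403, 420, 267 and 465 CPM in WT and 693, 621, 911 and 688 in KO (0.95 ± 0.24, edgeR adjusted p = 0.999). The genotypes did not overlap for either gene, and neither passed. The share of all genes without overlap in the wider set is not given, so nothing is read from this.

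Gene lists were set beside all genes tested, with no test of a list. Under the rule the WT mice were WT3 and WT4, and list differences without WT3 are not given. Of the 12 gland-duct cells of WT3, 2 had 3 or more keratin and Epcam UMIs and 10 had 3 or more Omp UMIs. The median log2 difference (KO minus WT) over all genes tested was 0.07 under the rule and -0.0022 in the wider set. Of all genes tested, 4 of 3021 (0.132%) were called under the rule and 1 of 4344 (0.023%) in the wider set. Counts of higher members are a description. Of 16 immediate early and stress genes, 14 were higher under the rule with 0 called (median 1.48), and 8 in the wider set (median 0.0020, 0 called). Gland regulators and water channels were higher in 10 of 10 (median 0.64) and 10 of 11 (median 0.11), and keratins and claudins in 7 of 7 (median 1.24) and 8 of 8 (median 0.42), with 0 called. Defence genes were higher in 8 of 13 (Reg3g called) and 7 of 12 (0 called). Of 9 NMD factors in the wider set Upf3b was called, and NMD-sensitive transcripts had medians of 0.16 (13 tested) and -0.06 (15 tested) with 0 called.

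Other lists had 0 called in either set. Endoplasmic reticulum genes had medians of 0.13 (20 tested) and 0.02 (21 tested), ion transport genes 0.27 (6) and -0.15 (8), and xenobiotic enzymes 0.70 (11) and -0.27 (13). Interferon and antigen presentation genes were lower in 4 of 5 and 5 of 5, with a median of -0.47 in both sets. Odorant-binding proteins and their like had medians of -1.27 (8 tested) and 0.43 (2), and BPI-fold proteins 1.41 (3) and 0.57 (4). Of the genes that chose the cells, Dcpp3 had a log2 difference of -1.25 ± 0.96 and Msln 0.42 ± 0.33 (SE) in the wider set, given as a description.

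Jun and Muc2 differed from sustentacular-like cells in their genotype effect. This was tested as an interaction with the mouse as a block in WT3, WT4, KO1 and KO4, and 2 of 4420 genes (0.0452%) were called, with 177 (4.0%) at an unadjusted p under 0.05. Jun, an AP-1 transcription factor, was at 137, 410, 899 and 728 CPM in the gland-duct cells and at 316, 729, 277 and 218 CPM in the sustentacular-like cells, a difference of effects of 2.50 ± 0.39 (log2, SE; edgeR adjusted p = 0.00116). It was higher in KO in the former and lower in KO in the latter. Muc2 was at 68.6, 60.1, 2.31 and 0 CPM in the gland-duct cells, from 2, 11, 1 and 0 UMIs, and at 1557, 987, 761 and 1365 in the sustentacular-like cells (-4.75 ± 0.83, edgeR adjusted p = 0.00423). WT3 gave only 10 sustentacular-like cells. DESeq2 called 0 of 15650 genes (0.0%), with 50 (0.319%) at an unadjusted p under 0.05, and edgeR called 18 without WT3, 40 without WT4 and 0 without KO4. With DESeq2 the difference was 2.55 for Jun and -5.02 for Muc2, and without KO4 2.48 and -4.10. Muc2 was not called without WT4 either (log2 -4.22, edgeR adjusted p = 0.429).

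In RNA-seq of sorted mOSNs, gland-duct markers were detected and edgeR called none of them. In bulk, fewer cells of a type and less RNA per cell cannot be told apart. Upf3b fell, its most abundant transcript from 71.0, 69.1, 126 and 77.8 CPM in WT to 0, 0.389, 0 and 0 in KO (CPM here use effective library sizes, edgeR adjusted p = 1.7e-05). Of the 12 gland-duct marker genes fixed as a list, 11 matched a transcript and 10 were tested, with 0 called where 26 of 11560 transcripts were (0.225%). Of the 10, 7 were higher in KO, 3 had an unadjusted p under 0.05, and the median log2 difference was 0.46, against 14.6% with such a p and a median of 0.02 for all transcripts. Msln was at 52.2, 31.3, 25.4 and 32.2 CPM in WT and 26.5, 155, 127 and 55.7 in KO (log2 1.34 ± 0.47, edgeR adjusted p = 0.301). Cxcl17 was at 4.32, 4.53, 2.54 and 4.47 CPM in WT and 3.22, 17.1, 23.4 and 11.8 in KO (1.77 ± 0.54, edgeR adjusted p = 0.244). For both, KO1 was within or near the WT values and the other KO libraries were above them.

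Leaving out KO1 changed these calls. Without it 433 transcripts were called, among them Msln (log2 1.64, edgeR adjusted p = 0.0215) and Cxcl17 (2.09, edgeR adjusted p = 0.0115), both higher in KO, and Bpifb9b (-1.37, edgeR adjusted p = 0.0256), lower in KO. KO1 also had the lowest KO value of Sox9 (5.01 CPM) and Aqp5 (1.79 CPM). Over the lists, in the fit of all 8 libraries, defence genes were higher in 12 of 12 (9 with an unadjusted p under 0.05, median 1.69) and odorant-binding proteins and their like in 0 of 11 (median -1.13), with 0 called in either. Gland regulators and water channels were higher in 12 of 12 (median 0.80) and interferon and antigen presentation genes in 8 of 8 (median 1.29), also with 0 called. Markers of other cells differed too. Neutrophil markers summed to 313, 271, 244 and 244 CPM in WT and 198, 1113, 1807 and 269 in KO, macrophage markers to 56.9, 38.5, 21.2 and 65.3 against 41.5, 286, 239 and 61.3, and sustentacular-like markers to 514, 526, 622 and 821 against 461, 1122, 1440 and 1841. Krt5, the HBC marker tested, was at 15.2 to 28.5 CPM in WT, within that range in KO1, and at 268, 210 and 37.3 CPM in KO2, KO3 and KO4. Erythroid markers went the other way, at 49.4, 45.7, 60.1 and 80.4 CPM in WT and 41.5, 27.6, 40.2 and 38.7 in KO. KO2 and KO3 were high for neutrophil, macrophage and HBC markers as for Msln and Cxcl17, and the part of these cells in the differences was not tested. Bpifb9b, a BPI-fold protein, was at 410, 511, 957 and 627 CPM in WT and 307, 212, 324 and 188 in KO, without overlap in CPM (-1.27 ± 0.26, edgeR adjusted p = 0.0965). DESeq2 called it (log2 -1.29, adjusted p = 5.13e-04). Its counts overlapped between genotypes, at 1137, 1353, 1130 and 701 in WT and 859, 545, 1080 and 398 in KO. WT1 and WT3 had near equal counts in libraries of 2739131 and 1285280 in total, and the part of library size was not tested. In scRNA-seq without WT3, Bpifb9b averaged 105 CPM in gland-duct cells and 97.6 CPM in sustentacular-like cells. Of all transcripts tested, 3.84% were lower in every KO library than in any WT library.

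The deposited counts of Omp and Scgb1c1 hardly rose with depth. Omp had 3763 to 3992 counts in RNA-seq libraries of 1216784 to 3264827 in total, and Scgb1c1 359 to 488. Their CPM therefore moved against the library total, and Scgb1c1 at 246 ± 85.1 CPM in WT and 170 ± 28.1 in KO (SD, n = 4) is given as a value only. Msln, with 30 to 424 counts in RNA-seq, varied more than the totals.

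In RiboTag RNA, 11 gland-duct markers were tested and 0 called, as were 0 of 14216 transcripts (0.0%), with 202 (1.42%) at an unadjusted p under 0.05 in edgeR's test and 13 of 22564 (0.0576%) called by DESeq2. Upf3b was at 193, 199 and 157 CPM in WT and 0.283, 0.452 and 3.06 in KO, and even this did not pass (edgeR adjusted p = 0.271). Msln was at 56.5, 67.9 and 45.8 CPM in WT and 51.9, 45.9 and 110 in KO, and Sox9 at 53.9, 77.3 and 34.7 against 38.0, 59.0 and 332. KO3 held the high value of both, and also of Dcpp1, Dcpp3, Aqp5, Vmo1, Bpifb9b and Scgb1c1. It was the smallest library, with 2691023 counts against 5810873 to 7542665. Between RiboTag libraries the counts of Msln (287 to 399), Vmo1 (914 to 1206) and Scgb1c1 (549 to 643) differed less than the totals, while those of Sox9 (258 to 868) and Dcpp3 (6 to 83) differed more. The part of library size in the KO3 values was not tested. The median log2 difference of the 11 transcripts was 0.28, against 0.0020 for all. Odorant-binding proteins and their like were higher in KO in 12 of 12 transcripts (median 0.68, 0 called), against 0 of 11 in RNA-seq, and the difference between the assays was not tested.

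**Figure D5:**
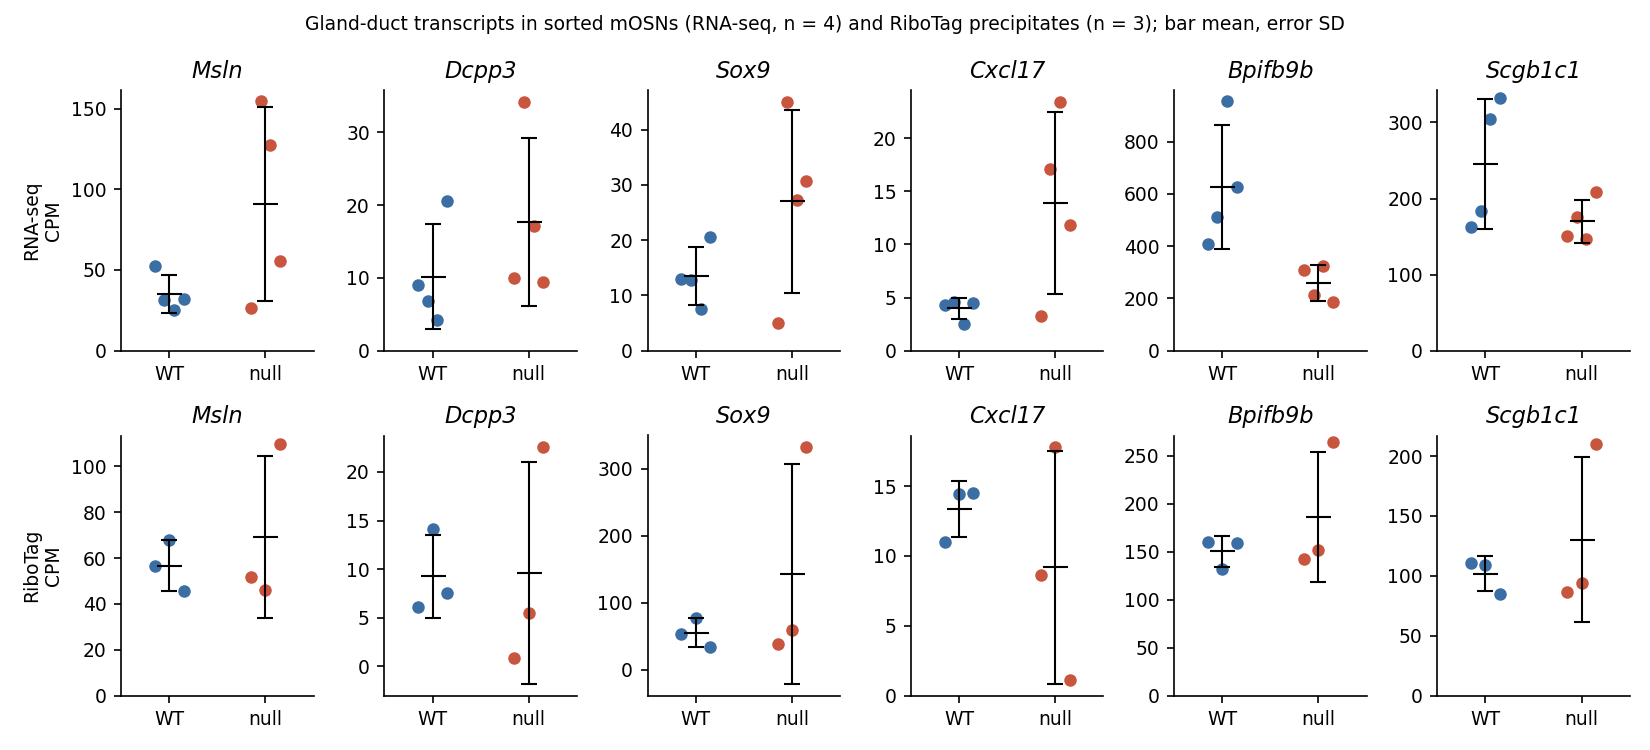
CPM of Msln, Dcpp3, Sox9, Cxcl17, Bpifb9b and Scgb1c1 in each library (points) with the mean and SD. The upper row is RNA-seq of sorted mOSNs (n = 4 each) and the lower row RiboTag (n = 3 each). Bpifb9b does not overlap between genotypes in RNA-seq CPM, though its counts do. Msln reaches 155 CPM in 1 RNA-seq KO library and 26.5 in another. In RiboTag, 1 KO library holds the highest Msln and Sox9 (110 and 332 CPM).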

How the data were processed

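For scRNA-seq (10x v2 chemistry, Cell Ranger, mm10) the matrices deposited by the authors hold UMI counts, and for RNA-seq and RiboTag their tables hold read counts per transcript (STAR 2.5.2b and featureCounts, per the submitters' processing notes). None is normalized. The RNA-seq cells were sorted on 2 days, and the day of a library is not given.

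Gland-duct cells, gene lists and tests were chosen with earlier results of these data known. Matrices were read in Python 3.11.15, and doublets were scored with Scrublet in scanpy 1.11.5. UMIs were summed per mouse and class. Mice with 10 or more gland-duct cells entered the fits. Classes were gated on marker genes, and sustentacular-like cells had 2% or more sustentacular UMIs. Ionocyte-like cells had 3 or more UMIs of Foxi1, Cftr and Ascl3 together, and mOSN-like cells 3 or more of Omp. Genotypes were compared with edgeR 4.0.16 under R 4.3.3 (TMM scaling, filterByExpr, robust quasi-likelihood test), with Benjamini-Hochberg adjustment over all features and a limit of 0.05. DESeq2 1.42.0 was an alternative. Shares were compared by exact permutation over mice in Python with numpy 2.4.6. Each fit was tested on simulated counts with 200 changed genes. Of 23010 bulk transcripts, 22646 matched GENCODE vM21.

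Named genes were the rule genes and markers, list members of highest level or largest change, genes called (with the 10 smallest p where fewer than 10 were called), leading genes by log2 ratio at 200 CPM or more, and genes that differed most with Dcpp at 100 CPM or more. Other genes named were chosen after their values were seen. Single cells are not replicates, and errors of a mean are SD over mice or libraries. Each scRNA-seq library is 1 mouse and each bulk library a pool of 3, described as replicates in the study's methods. The 2-fold counts of list members use the mean log2 ratio over mice with 20 CPM added, and levels of other classes are means over all mice with 10 or more of their cells.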

Additional observations from a re-analysis of the deposited data

Results flagged for a closer look

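Of 40 groups of 4 samples examined, 6 had a sample whose gap to its nearest neighbour, as a share of the group's range, was above Dixon's 95% critical value, which chance passes in about 1 group in 20. In scRNA-seq, WT4 was far above the other WT mice in the share of gland-duct cells (0.895) and in the share among cells that are not immune or erythroid (0.914). KO1 was far above the other KO mice in the share of the wider set (0.843). KO2 was far below the other KO mice in Apoe in the wider set (0.918).

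In RNA-seq of sorted mOSNs, Cxcl17 was lower in WT3 than in the other WT libraries (0.896), at 2.54 against 4.32 to 4.53 CPM. Aqp5 was lower in KO1 than in the other KO libraries (0.920), at 1.79 against 8.16 to 8.71 CPM. Both low values rest on few counts, 3 for Cxcl17 in WT3 and 5 for Aqp5 in KO1. The causes were not tested.

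The genotype effect differed between gland-duct and sustentacular-like cells for Jun (log2 2.50, edgeR adjusted p = 0.00116) and Muc2 (log2 -4.75, edgeR adjusted p = 0.00423). Over the alternatives the edgeR or DESeq2 adjusted p ran from 6.06e-07 to 0.362 for Jun and from 6.45e-04 to 1.00 for Muc2, with the direction kept in each.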

How the results depend on the processing

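The share of gland-duct cells differed by -0.0186 percentage points (KO minus WT). The sign turned with cells that are not immune or erythroid as the denominator (0.0847), with 5 or more Dcpp and Msln UMIs (0.0997), in the wider set (0.570) and in the stricter set (0.0898), and leaving out 1 mouse gave -0.220 to 0.214 (positive without WT4, 0.214, KO2, 0.0755, and KO3, 0.0780). The difference was -0.701 with 2 or more UMIs and -2.72 with Dcpp and Msln at 0.05% or more of UMIs, where WT3 had 10.2%. No exact permutation p was below 0.371. The count of 4 genes called under the rule became 2 with DESeq2, 10 with genes of 1 or more count, 0 over all 8 mice (edgeR, 8 at an unadjusted p under 0.05), 2 with 5 or more UMIs and 2 in the stricter set, and 6 to 28 without 1 mouse. Over all 8 mice only 424 genes were tested, against 3021 under the rule. The 0 there therefore cannot show that the 4 calls were lost. In the wider set the count of genes called was 1 with edgeR, 1 with DESeq2 and 1 to 1 without 1 mouse. Reg3g reversed in the wider set without KO4 (log2 -1.35). The 2 interaction calls became 6 with genes of 1 or more count, 0 with DESeq2 and 0 to 40 without 1 mouse. The 26 RNA-seq calls became 244 with DESeq2, 43 with transcripts of 1 or more count and 12 to 433 without 1 library, and the 0 RiboTag calls 13 with DESeq2 and 0 to 17 without 1 library (17 without KO3). The causes were not tested. Fits without 1 mouse of 2, and those with 5 or more UMIs or the stricter set, where WT4 is the 1 WT mouse, assume that the lone mouse varies like the other group.

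Same-numbered samples did not deviate together throughout (r from -0.12 to 0.52 in the wider set, -0.17 to -0.02 in RNA-seq and -0.47 to -0.17 in RiboTag), so the numbers were not used as pairs. With a replicate block, calls were 0 of only 424 genes tested over all 8 mice, 15 in RNA-seq and 0 in RiboTag. In the wider set the block called 4 (Gm8730 among them, log2 1.98, edgeR adjusted p = 0.00307). Sign flips over same-numbered mice gave an exact permutation p of 0.875 for the share.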
